A study of Mus musculus with 3 samples.

Results

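The lncRNAs Lncbate1, Gm35552, Meg3, Mannr, Gm12002, Gm10032, 1700020I14Rik, Malat1 and Neat1 were followed across the nucleus types of mouse interscapular brown adipose tissue (BAT). They are 9 of the 25154 genes with a column in any of the count tables, and all 9 had a column in every table. Most of them were chosen by their measured levels, since an earlier analysis of the same nuclei had placed them among the leading genes of a group of nuclei. Malat1 and Neat1 are well-known lncRNAs of the nucleus. Their order across nucleus types is therefore given as a description, with no test.

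Single-nucleus RNA sequencing was run on the floating layer of digested BAT, which holds brown adipocytes (BAs) and fragments of vessels, from 8-week-old male C57BL/6J mice. One library came from untreated mice, 1 from mice labelled as sham-operated, and 1 from mice with denervated BAT (D-BAT), taken at day 3 after the intercostal nerves on the left side were cut. The untreated and D-BAT libraries were each made from the pooled BAT of 20 mice, and the number of sham mice is not given in the sources used here. For the denervated mice the study's figure legend also lists tamoxifen, which it does not for the untreated mice, and the sham label does not say. No group carried a transgene or a deleted gene. Mouse pool, preparation, tamoxifen and condition cannot be told apart with 1 library per condition, so no p-value, SD or SE was computed, and each interval in the text is a 95% interval for counting error only.

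The tables held 13707, 15368 and 15822 barcodes in the untreated, sham and D-BAT libraries, with 14971579, 14725864 and 9420030 unique molecular identifiers (UMIs, each standing for 1 captured RNA molecule). After filters, 10873, 12140 and 9692 nuclei were kept, with medians of 960, 740 and 679 UMIs. The sham library stood apart from the other two: mitochondrial transcripts took 12.9% of its UMIs, compared with 6.71% in the untreated and 2.95% in the D-BAT library, and at the settings used it gave a smooth muscle-like cluster (454 nuclei). Other filters or clustering settings also separated 58 to 70 such nuclei in untreated BAT, and classes from marker UMIs alone held 20 in untreated BAT and 34 in D-BAT. Between 251 and 278 barcodes were shared by any pair of libraries.

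Nuclei were clustered without the 9 lncRNAs, and clusters were named from marker genes. Brown adipocyte-like (BA-like) nuclei numbered 3944, 2597 and 4884 in the untreated, sham and D-BAT libraries, and endothelial cell-like (EC-like) nuclei numbered 5430, 5790 and 2682. Pericyte-like (PC-like) nuclei numbered 670, 1482 and 831. A further adipocyte class was called white-marker adipocyte by its rule only (684, 1564 and 911 nuclei). It was 1 cluster in the untreated and sham libraries and 2 in D-BAT, where the smaller one of 49 nuclei was led by interferon-response genes such as Rsad2. Its summed white adipocyte markers were at 765, 1204 and 1880 UMIs per 1000000 in the untreated, sham and D-BAT libraries and its brown ones at 4838, 3499 and 1709, so its make-up differed between libraries and it is given no cell type name. Fibroblast-like, immune-like and Schwann-like nuclei were few, between 28 and 261 per library. Levels are given as UMIs per 1000000 UMIs of the class (CPM). RNA was captured at stretches of A, in a tail or within the transcript, and CPM is not per length. Levels are therefore compared between nucleus types and libraries. Ranks among genes are given by captured UMIs only and are not ranks of RNA amount.

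A lncRNA is a transcript without a long open reading frame, and many of them stay in the nucleus, where they hold proteins together, act on neighbouring genes or are only by-products of transcription. Malat1 collects in nuclear speckles beside splicing factors, and Neat1 is the scaffold on which paraspeckles are built. Meg3 is transcribed from the maternal copy of the imprinted Dlk1-Dio3 region, and Lncbate1 is a brown fat lncRNA that binds the nuclear protein Hnrnpu and is needed for the BA programme. Mouse 1700020I14Rik, also called Cyrano or Oip5os1, holds an almost fully paired site for the microRNA miR-7 and directs the destruction of this microRNA. Mannr lies beside Mecom, a transcription factor gene of ECs, and Gm12002, Gm10032 and Gm35552 are gene models for which no function is stated here. Only nuclei were sequenced, so whether a lncRNA was nuclear or cytoplasmic was not measured, and "nuclear" in the choice of the 9 is a label that these data do not test.

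On GRCm38, with GENCODE vM21 positions, Lncbate1 (chr8:108553252-108584595, minus strand, 2 exons) lies inside Zfhx3 on the opposite strand, and Gm12002 (chr11:12314514-12351028, plus strand) is antisense to Cobl, a gene of an actin-nucleating protein. Malat1 (chr19:5795690-5802672) and Neat1 (chr19:5824708-5845478) stand close to each other on the minus strand. Meg3 occupies chr12:109541001-109571726, Mannr chr3:29891014-29924191, Gm10032 chr14:66784480-66793758 and 1700020I14Rik chr2:119594297-119607502, all on the plus strand, and Gm35552 chr10:47016652-47102832 on the minus strand. Whether the authors counted reads by strand is not given in the sources used here, so reads of Lncbate1 and Zfhx3, or of Gm12002 and Cobl, may not be fully told apart where they overlap.

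The miR-7 site is the sequence for which 1700020I14Rik is known, so it is printed with its partner. The mature mouse miR-7a (RefSeq) has its seed, bases 2 to 8, in capitals, and the 2 seed matches of the longest 1700020I14Rik transcript (8300 bases) have the matching 7 bases in capitals, all 5′ to 3′.
mmu-miR-7a-5p: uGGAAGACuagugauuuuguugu
1700020I14Rik, chr2:119602132-119602161: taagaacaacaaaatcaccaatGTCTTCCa
1700020I14Rik, chr2:119599942-119599971: gacttcaggttttttttttaatGTCTTCCa
At the first site 13 of the last 14 bases of the miRNA could also pair, with a shift of 2 bases, while at the second only 6 of 14 could. Seed matches were also present in transcripts of Gm12002, Lncbate1, Meg3 and Neat1, with at most 7 of 14 paired tail bases.

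Capture can also start at runs of A within an annotated transcript. The longest such runs are shown for Gm10032, Gm12002 and Malat1, which several results below turn on, with the run in capitals and 20 bases on each side.
Gm10032, chr14:66793479-66793532, plus strand: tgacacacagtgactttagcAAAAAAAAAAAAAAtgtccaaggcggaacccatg
Gm12002, chr11:12335872-12335924, plus strand: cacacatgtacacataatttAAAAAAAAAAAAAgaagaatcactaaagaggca
Malat1, chr19:5795968-5796019, minus strand: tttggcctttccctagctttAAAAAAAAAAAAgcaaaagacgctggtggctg
The run lies 246 bases from the 3′ end of the annotated transcript in Gm10032, 298 in Malat1 and 1226 in Gm12002. Whether the mature RNA reaches the annotated end was not measured. Meg3 held runs of up to 16, 1700020I14Rik none over 8, and Lncbate1, Gm35552, Mannr and Neat1 none of 8 or more. The share of UMIs that began at these runs was not measured.

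Promoters were searched on both strands for the TATA box TATAAA, the nuclear receptor motif AGGTCA, the ETS factor motif CCGGAA, the E-box CACGTG and the cyclic AMP response element TGACGTCA. RefSeq promoters (GRCm38.p6, 250 bases before to 50 after the start) matched 6 of the 9 lncRNAs: Meg3, Mannr, Gm35552, Gm12002, 1700020I14Rik and Malat1. The promoters of Meg3 and Mannr, which lead the PC-like and an EC-like pattern, are printed with motif letters in capitals.
Meg3, chr12:109540746-109541045, plus strand: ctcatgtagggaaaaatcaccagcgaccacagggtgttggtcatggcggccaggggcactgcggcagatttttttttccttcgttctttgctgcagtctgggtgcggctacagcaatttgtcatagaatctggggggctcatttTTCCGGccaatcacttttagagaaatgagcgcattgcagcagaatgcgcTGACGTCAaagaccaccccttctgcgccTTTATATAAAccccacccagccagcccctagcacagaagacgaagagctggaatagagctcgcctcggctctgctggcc
Mannr, chr3:29890767-29891066, plus strand: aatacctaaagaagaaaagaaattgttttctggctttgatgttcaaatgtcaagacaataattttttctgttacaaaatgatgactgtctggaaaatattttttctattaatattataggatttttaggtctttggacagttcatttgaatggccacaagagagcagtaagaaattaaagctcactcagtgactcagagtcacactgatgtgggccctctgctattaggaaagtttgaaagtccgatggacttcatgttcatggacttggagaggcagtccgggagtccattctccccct
The Meg3 promoter held TGACGTCA at -57 from the start, TATAAA at -25, a second TATAAA on the minus strand at -29 that overlaps it, and CCGGAA on the minus strand at -106. RefSeq gave Meg3 another promoter at chr12:109545148-109545447, with AGGTCA on the minus strand at -141 and 1 CG. TGACGTCA was present in 1.79% of 32851 RefSeq promoters, TATAAA in 13.6% and CCGGAA in 14.9%, against 16.3% for AGGTCA and 7.15% for CACGTG. The Meg3 window held 13 CG dinucleotides and the Mannr window 2, with no motif, while the median of all promoters was 7. The 1700020I14Rik promoter held 15 CG and none of the motifs, and those of Malat1 and Gm35552 held CCGGAA, with 10 and 3 CG. A match here is a match of letters only.

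Lncbate1 was higher in adipocyte nuclei than in any other class of at least 50 nuclei in every library. In BA-like nuclei it was at 535 CPM (518 to 551) untreated, 534 CPM (511 to 558) sham and 495 CPM (476 to 515) in D-BAT. White-marker adipocytes had the next level in each library, at 413, 315 and 284 CPM, below the BA-like interval each time. PC-like and EC-like nuclei came last in the untreated library, at 31.3 and 31.1 CPM, where their intervals overlapped. In D-BAT the immune-like, EC-like and PC-like levels of 97.5, 92.0 and 90.0 CPM overlapped as well. The fold of BA-like over EC-like nuclei was 17.2 untreated, 20.4 sham and 5.38 in D-BAT, so the contrast was smaller in D-BAT.

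To compare nuclei of unequal depth, each was thinned to 300 UMIs and shallower nuclei were left out. A UMI of Lncbate1 was then found in 14.2% of untreated, 13.6% of sham and 13.2% of D-BAT BA-like nuclei. The unthinned shares, at median depths of 1903.5, 1453 and 886.5 UMIs, were 49.3%, 41.4% and 31.8%. The unthinned shares followed the median depth, and the thinned shares lay closer together. In EC-like nuclei of the untreated library (median 671 UMIs) the thinned share was 0.665%. Whether these UMIs came from ambient RNA, doublets or the nuclei themselves was not tested.

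Gm35552 was highest in the same adipocyte classes. It was at 219 CPM (209 to 230) untreated, 185 CPM (172 to 199) sham and 245 CPM (231 to 259) in D-BAT in BA-like nuclei. White-marker adipocytes were at 105, 122 and 83.0 CPM, lower than BA-like nuclei in each library. EC-like nuclei were at 8.04 and 9.55 CPM in the untreated and sham libraries, from 31 and 35 UMIs, and at 51.5 CPM (40.2 to 65.1) in D-BAT. Of the lncRNA genes, Lncbate1 was the 7th and Gm35552 the 16th by UMIs in untreated BA-like nuclei.

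Gm10032 was highest in BA-like nuclei among the classes of at least 50 nuclei, and its level there differed more between libraries than that of Lncbate1 or Gm35552. BA-like nuclei held 430 UMIs, or 57.3 CPM (52.0 to 63.0), in the untreated library, 990 UMIs or 263 CPM (247 to 280) in sham, and 140 UMIs or 28.7 CPM (24.1 to 33.8) in D-BAT. None of these intervals overlapped. After thinning, 1.45%, 8.02% and 0.764% of BA-like nuclei held a UMI, so the order stayed the same at equal depth. White-marker adipocytes were at 21.7, 86.2 and 3.71 CPM (19, 167 and 3 UMIs), the same order, while EC-like nuclei were at 4.67, 8.46 and 3.68 CPM. In D-BAT the white-marker adipocytes thus stood level with EC-like nuclei. The neighbour Adra1a, an adrenergic receptor gene 13312 bp away on the same strand, was at 409, 627 and 503 CPM in BA-like nuclei.

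Meg3 marked mural and stromal nuclei. PC-like nuclei were at 2698 CPM (2565 to 2836) untreated, 2971 CPM (2875 to 3071) sham and 2762 CPM (2601 to 2930) in D-BAT. The sham interval lay above that of untreated BAT, and the other pairs overlapped. Smooth muscle markers in the PC-like nuclei were at 2088, 1016 and 1635 CPM in the untreated, sham and D-BAT libraries, and their part in the Meg3 levels was not tested. Thinned shares of PC-like nuclei with a UMI were 51.2%, 54.4% and 48.4%, compared with 0.302%, 1.28% and 0.461% of EC-like nuclei. Smooth muscle-like nuclei of the sham library were at 1892 CPM (1743 to 2050), below the PC-like interval.

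Fibroblast-like nuclei were at 2107 CPM (1616 to 2702; 32 nuclei) untreated, 2759 CPM (2254 to 3343; 50 nuclei) sham and 4359 CPM (3785 to 4995; 77 nuclei) in D-BAT. They could not be told from PC-like nuclei in the first 2 libraries by their intervals, and were above them in D-BAT. Schwann-like nuclei gave 14, 43 and 2 UMIs, or 605, 532 and 67.8 CPM, from 28 nuclei in the untreated library. BA-like nuclei were at 9.07, 12.2 and 12.3 CPM, and the fold of PC-like over EC-like nuclei was 217, 60.5 and 129. The rest of the Dlk1-Dio3 list was too low in BA-like and EC-like nuclei to be compared (0 of 7 reached 50 CPM). In PC-like nuclei Mirg, another lncRNA of the region, was at 148, 167 and 165 CPM, and Dlk1, its paternally expressed gene, at 165, 179 and 47.5 CPM.

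Gm12002 was the lncRNA of EC-like nuclei. It was at 477 CPM (456 to 500) untreated, 415 CPM (394 to 436) sham and 272 CPM (245 to 302) in D-BAT, and these intervals did not overlap. BA-like nuclei were at 8.67, 6.12 and 5.33 CPM, so the EC-like level was 55.1, 67.8 and 51.1 times higher. The share of EC-like nuclei with a UMI after thinning was 12.6%, 10.4% and 7.32%, against 0.254%, 0.390% and 0.186% of BA-like nuclei. Cobl, the gene on its opposite strand, was at 4.93, 7.10 and 16.2 CPM in EC-like nuclei, from only 19, 26 and 22 UMIs. In BA-like nuclei it was at 8.27, 2.13 and 13.9 CPM, so no order across libraries is read from Cobl. PC-like nuclei were at 13.9, 44.2 and 22.5 CPM of Gm12002, and 75 immune-like nuclei of the sham library at 183 CPM from 12 UMIs. Those immune-like nuclei also held 5528 CPM of the endothelial marker list, compared with 618 and 839 CPM in the untreated and D-BAT libraries. Their adipocyte marker list was lower, at 687 CPM compared with 2139 and 1853 CPM. The ambient share estimated from both lists together was 85.3% of their UMIs. As the lists differed in direction, that value is not read as a measure of ambient RNA, and the source of the endothelial UMIs was not tested.

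Mannr had few UMIs. EC-like nuclei were at 32.4 CPM (125 UMIs; 27.0 to 38.6) untreated, 37.7 CPM (138 UMIs; 31.6 to 44.5) sham and 20.6 CPM (28 UMIs; 13.7 to 29.8) in D-BAT. BA-like nuclei were at 2.80, 3.19 and 3.28 CPM, and the fold between the classes was 11.6, 11.8 and 6.29. It stood highest of the classes with at least 50 nuclei except in the sham library, where 3 UMIs in 75 immune-like nuclei gave 45.8 CPM with an interval of 9.45 to 134. These are the nuclei with the raised endothelial markers.

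Within EC-like nuclei Mannr was highest in 1 cluster, which held 104 of 125 UMIs in the untreated and 44 of 138 in the sham library. In the untreated library a cluster of 353 nuclei led by Alox12, Sema3g and Col8a1 was at 376 CPM (307 to 456), whereas the largest EC-like cluster of 3163 nuclei was at 4.96 CPM (2.64 to 8.47). The sham library had a matching cluster of 228 nuclei, with Sema3g, Alox12 and Col8a1 among its leaders, at 361 CPM (263 to 485), and its largest EC-like cluster was at 29.7 CPM. Gja5, which codes for a connexin of arterial endothelium, was at 188 and 123 CPM in these clusters, and at 1.14 and 7.26 CPM in the largest ones. Mannr was among the 10 leading genes of both Mannr-rich clusters, which are named here for its level. The clustering had not used it. However, most of the lncRNAs were chosen because they led a group of these same nuclei. The place of Mannr among the leaders is therefore a description and not separate support. No Mannr-rich cluster was separated in D-BAT, where the EC-like clusters were at 30.3 and 11.4 CPM.

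Gm12002 had another pattern among the same clusters. In the untreated library it was at 695 CPM (629 to 765) in a cluster of 1412 nuclei and 491 CPM (465 to 519) in the largest, but 235 CPM (181 to 300) in the Mannr-rich cluster. In sham these values were 469 CPM in the largest and 172 CPM in the Mannr-rich cluster. Another sham cluster, of 585 nuclei, was at 166 CPM, so a low level was not particular to the Mannr-rich cluster. Mecom, the neighbour of Mannr at 27105 bp, was at 2105 CPM and 1700 CPM in the Mannr-rich clusters of the untreated and sham libraries, and at 502 and 612 CPM in the largest ones. Over the EC-like class Mecom was at 659, 623 and 659 CPM, and over BA-like nuclei at 104, 49.99 and 134 CPM.

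1700020I14Rik was found in every class. In the untreated library BA-like nuclei were at 363 CPM (350 to 377), EC-like at 345 CPM (327 to 364) and white-marker adipocytes at 328 CPM (291 to 368), with overlapping intervals. PC-like nuclei were lower, at 247 CPM (208 to 291). The sham library differed: BA-like nuclei were at 895 CPM (865 to 925), white-marker adipocytes at 479 CPM (449 to 511) and EC-like nuclei at 270 CPM (254 to 288). D-BAT had BA-like nuclei at 393 CPM (376 to 411), EC-like at 334 CPM (304 to 366) and white-marker adipocytes at 199 CPM (170 to 233). Thinned shares in BA-like nuclei were 9.75%, 22.8% and 10.6%.

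Malat1 took 2.57%, 2.81% and 2.30% of the UMIs of BA-like nuclei in the untreated, sham and D-BAT libraries, more than any other lncRNA gene in the untreated library. EC-like nuclei were the lowest named class in every library, at 11224 CPM (11118 to 11330), 14070 CPM (13949 to 14192) and 16329 CPM (16115 to 16545). BA-like nuclei were at 25696, 28132 and 22994 CPM, and PC-like nuclei at 27502, 22306 and 36905 CPM. White-marker adipocytes were at 30213, 32048 and 34348 CPM, above BA-like nuclei each time. The fold of BA-like over EC-like nuclei was 2.29, 1.999 and 1.41. Even after thinning, 91.1% to 92.4% of EC-like nuclei and over 99% of BA-like nuclei held a UMI, so the share of nuclei says little for this gene.

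Neat1 was an adipocyte-high lncRNA. BA-like nuclei were at 5429 CPM (5376 to 5482) untreated, 4907 CPM (4837 to 4979) sham and 5493 CPM (5427 to 5559) in D-BAT, and white-marker adipocytes at 4568, 3689 and 6311 CPM. The order of these adipocyte classes therefore turned in D-BAT. EC-like nuclei were at 1197, 1443 and 2030 CPM and PC-like nuclei at 738, 771 and 1435 CPM. Immune-like nuclei lay between them and the adipocytes, at 3422, 1772 and 2816 CPM. Thinned shares were 75.0%, 70.8% and 75.0% in BA-like and 26.8%, 31.7% and 33.7% in EC-like nuclei, so the class difference held at equal depth.

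**Figure D1:**
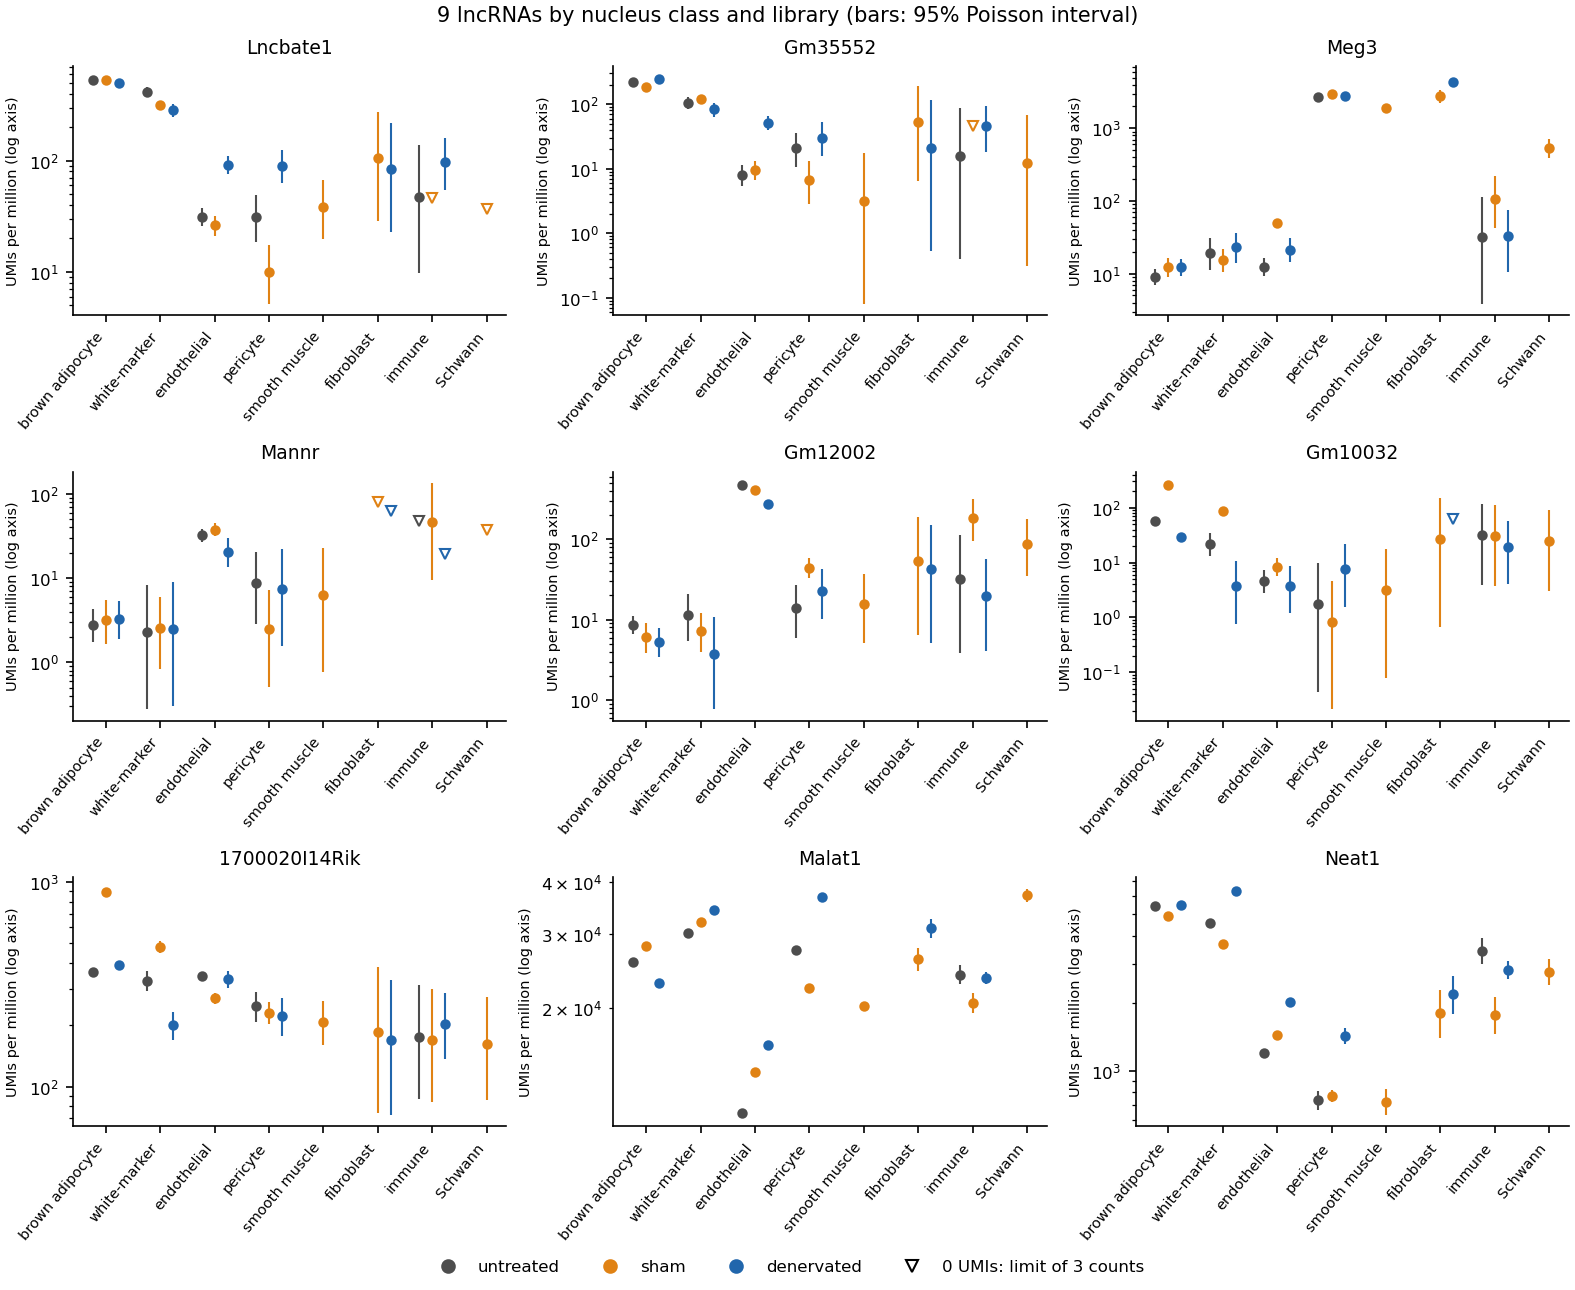
Levels of the 9 lncRNAs, in CPM on a log axis, by nucleus class and library, 1 panel per lncRNA; bars are exact 95% Poisson intervals for counting error and each point is 1 class in 1 library. Lncbate1, Gm35552 and Neat1 sit high in adipocyte nuclei, Gm10032 in BA-like nuclei, Meg3 in PC-like and fibroblast-like nuclei, Gm12002 and Mannr in EC-like nuclei, and Malat1 is lowest in EC-like nuclei.

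All lncRNA genes together took 5.41%, 6.05% and 5.43% of the UMIs of BA-like nuclei and 2.92%, 3.45% and 3.77% of those of EC-like nuclei. The 9 lncRNAs made up 59.7%, 57.8% and 54.7% of that share in BA-like and 45.7%, 47.3% and 50.8% in EC-like nuclei, most of it Malat1. After Malat1 and Neat1, the lncRNA genes with the most UMIs in untreated BA-like nuclei were Ctcflos (1333 CPM), 4933406I18Rik (1051 CPM) and Gm42418 (1036 CPM). In EC-like nuclei of that library Gm42418 (2098 CPM) and Airn (1468 CPM), an imprinted lncRNA, stood between Malat1 and Neat1. Gm12002 was the 6th and 1700020I14Rik the 8th lncRNA there by UMIs, and Mannr the 58th.

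The number of lncRNAs whose highest class was at least 4-fold above the next depended on whether adipocytes were taken as 1 class or 2. With at least 50 nuclei per class and at least 50 CPM in the highest class, 2 of 8 lncRNAs in the untreated library (Meg3 at 85.1-fold and Gm12002 at 15.1-fold over the next class) reached 4-fold, and 14.3% of all 7095 genes that met the same limits did so. In sham 0 of 8 did, with 8.63% of all genes, and in D-BAT 1 of 7 did (Gm12002, 6.47-fold), with 11.5% of all genes. The fold of Meg3 in the untreated library leaves out its fibroblast-like nuclei, which were high in Meg3 but numbered only 32. In sham, where 50 fibroblast-like nuclei entered, the PC-like level of Meg3 was 1.08-fold above theirs. With both adipocyte clusters joined, an alternative added after seeing the data, the counts were 4, 2 and 3, against 17.1%, 10.3% and 11.9% of all genes. In sham the next class for Gm12002 was the immune-like one with raised endothelial markers. The fold of the highest class is partly what chose these lncRNAs, and 5, 8 and 6 classes entered, so nothing further is read from the counts.

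Next, the libraries were compared within a class to ask how the lncRNAs stood after denervation. A gene was counted as apart where its level differed at least 2-fold and it reached 50 CPM in either library. In BA-like nuclei, 0 of 6 lncRNAs were apart between D-BAT and untreated BAT, with 1.76% of 4556 genes apart. Lncbate1 had a log2 ratio of -0.11 (-0.18 to -0.04), Gm35552 0.16 (0.05 to 0.27) and 1700020I14Rik 0.11 (0.03 to 0.20). Malat1 was at -0.16 (-0.17 to -0.15) and Neat1 at 0.02 (-0.01 to 0.04). Gm10032, at -0.999 (-1.28 to -0.72), lay just inside the 2-fold limit and passed it in 5 of the alternative settings. The sizes of the other ratios were thus all at or below 0.16.

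The sham library moved 2 of them. Between D-BAT and sham, 2 of 6 lncRNAs were apart in BA-like nuclei, both lower in D-BAT, against 16.2% of 4858 genes. These were Gm10032, with a log2 ratio of -3.20 (-3.46 to -2.94), and 1700020I14Rik, with -1.19 (-1.27 to -1.11). Between sham and untreated BAT the same 2 of 6 were apart, both higher in sham, at 2.20 (2.03 to 2.37) and 1.30 (1.23 to 1.37), against 15.0% of 4893 genes. The comparisons share libraries, so the second follows in part from the first. The sham library also had the higher mitochondrial share (6.33% of the UMIs of BA-like nuclei, compared with 3.15% and 1.84%). On non-mitochondrial UMIs the ratios over untreated BAT were 2.25 and 1.35. That setting shifts all other genes of a class alike, so the part of the mitochondrial share in these ratios was not tested.

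White-marker adipocytes had the same directions for Gm10032, with log2 ratios of 1.99 for sham over untreated, -2.55 (-4.95 to -0.78) for D-BAT over untreated and -4.54 (-6.83 to -2.96) for D-BAT over sham, the D-BAT value resting on 3 UMIs. For 1700020I14Rik these were 0.55, -0.72 and -1.27. The median log2 ratio of the compared lncRNAs in BA-like nuclei was -0.05 for D-BAT over untreated, with -0.01 over all genes, -0.20 for D-BAT over sham, with -0.02 over all genes, and 0.06 for sham over untreated, with 0.00 over all genes.

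In EC-like nuclei, 2 of 6 lncRNAs were higher in D-BAT than in untreated BAT, against 8.61% of 4764 genes apart in either direction. These were Lncbate1, with a log2 ratio of 1.56 (1.19 to 1.94), and Gm35552, with 2.68 (2.05 to 3.34), both lncRNAs of adipocyte nuclei. Against sham the same lncRNAs were apart, 2 of 6, at 1.81 (1.42 to 2.21) and 2.43 (1.83 to 3.06), against 16.6% of 4831 genes. Both reached 50 CPM only in D-BAT. Lncbate1 was at 31.1, 26.2 and 92.0 CPM in the untreated, sham and D-BAT libraries, and Gm35552 at 8.04, 9.55 and 51.5 CPM. They thus entered these comparisons through the library where they were high, and nothing further is read from the counts. Between sham and untreated BAT 0 of 4 were apart, against 4.68% of 4468 genes. Adipocyte markers moved with this result: all 9 of the list were found in the EC-like nuclei of each library, and their summed level there was 1044, 1015 and 1965 CPM in the untreated, sham and D-BAT libraries, compared with 6732, 7880 and 6296 CPM in BA-like nuclei.

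Both lncRNAs were uneven within the EC-like nuclei of untreated BAT and D-BAT. In sham, the largest EC-like cluster and the next were at 26.4 and 33.8 CPM of Lncbate1 and at 9.24 and 13.5 CPM of Gm35552. Those log2 ratios were -0.36 (-1.31 to 0.76) and -0.55 (-2.06 to 1.42), while the adipocyte marker list was at 956 and 1858 CPM. In D-BAT, a cluster of 1428 nuclei with a median of 325 UMIs was at 173 CPM (143 to 208) of Lncbate1, 91.0 CPM of Gm35552 and 2768 CPM of the adipocyte marker list. The other cluster, of 1254 nuclei with a median of 478 UMIs, was at 15.7 CPM (7.86 to 28.2) of Lncbate1, 14.3 CPM of Gm35552 and 1208 CPM of the list. In untreated BAT the cluster of 1412 nuclei with a median of 347 UMIs was at 81.5 CPM of Lncbate1, 18.7 CPM of Gm35552 and 1600 CPM of the list, and the largest at 23.6, 6.86 and 971 CPM. Without EC-like clusters whose median was under 400 UMIs, which leaves out these clusters of low depth in both libraries and was an alternative added after seeing the data, the ratio of Lncbate1 turned to -0.49 over untreated and -0.74 over sham, and that of Gm35552 was 1.23 and 0.58. The ambient share of the EC-like UMIs, estimated from markers of other classes, was 18.4%, 13.7% and 39.9% in the untreated, sham and D-BAT libraries. After subtraction of an ambient profile at that share, both lncRNAs were at 0 CPM in the EC-like nuclei of D-BAT, and 0 lncRNAs were apart from untreated BAT. The profile was made of all barcodes of the library, BA-like nuclei included, and the markers behind the share include the adipocyte list. The subtraction therefore lowers adipocyte transcripts whatever their source, and it cannot tell where these UMIs came from.

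Gm12002 was lower in the EC-like nuclei of D-BAT than in the other libraries, with log2 ratios of -0.81 (-0.97 to -0.65) over untreated and -0.61 over sham. The endothelial marker list had the same order in these nuclei, at 15939, 12768 and 11005 CPM in the untreated, sham and D-BAT libraries, and its part in the result was not tested. Malat1 and Neat1 were higher, at 0.54 and 0.76 over untreated and at 0.21 and 0.49 over sham, within the 2-fold limit. Without the EC-like clusters under 400 UMIs their ratios turned to -0.05 and -0.21 over untreated and to -0.61 and -0.62 over sham. 1700020I14Rik differed little there, at -0.05 and 0.31. Mannr was at -0.65 over untreated and was below 50 CPM in both. Meg3 in EC-like nuclei was below 50 CPM in all libraries and had a ratio of 1.98 (1.51 to 2.47) for sham over untreated. The median over the compared lncRNAs was 0.65 for D-BAT over untreated, with 0.04 over all genes, and 0.40 over sham, with 0.16 over all genes. These medians include Lncbate1 and Gm35552, which reached 50 CPM only in D-BAT, so nothing further is read from them.

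**Figure D2:**
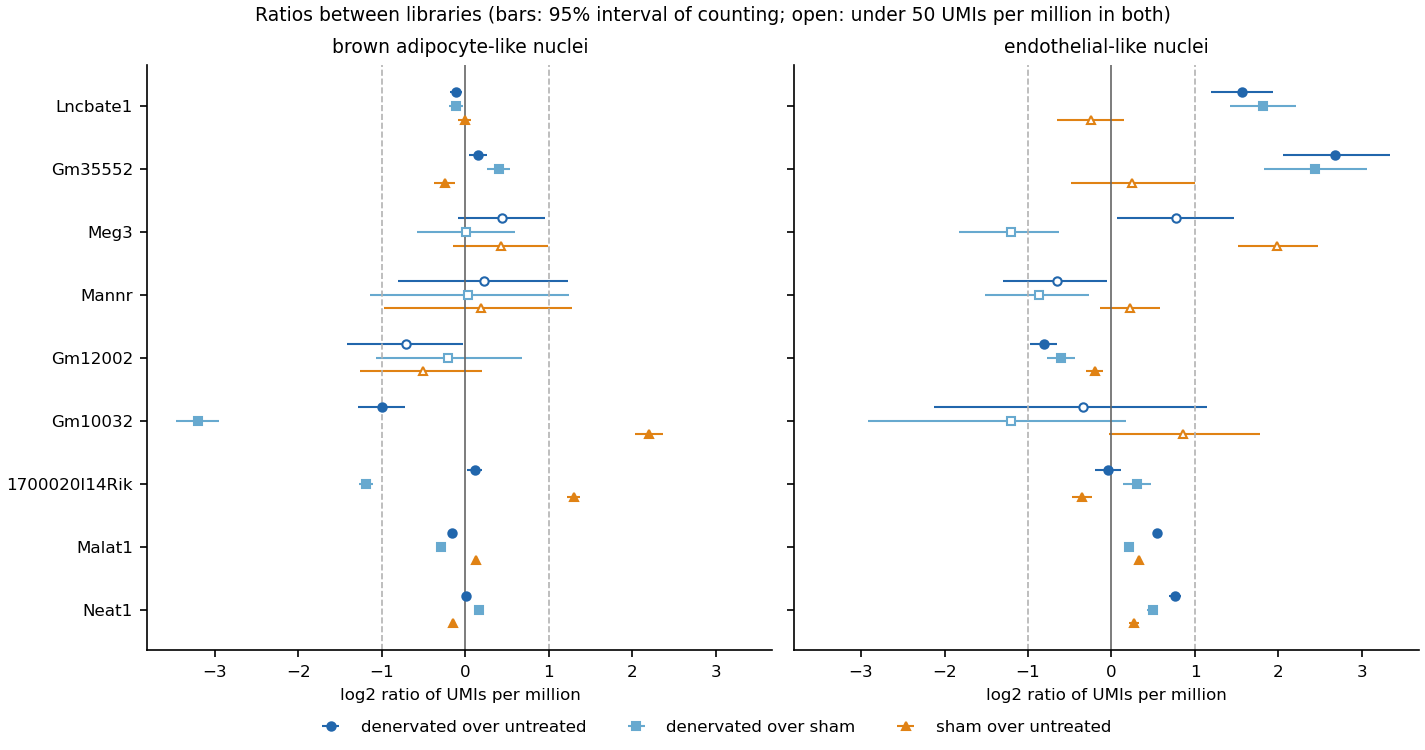
Log2 ratio of CPM between libraries for each lncRNA in BA-like and EC-like nuclei, with exact conditional binomial 95% intervals for counting error; dashed lines mark the 2-fold limit and open symbols mark lncRNAs under 50 CPM in both libraries. Gm10032 and 1700020I14Rik are apart in BA-like nuclei where sham is compared, and Lncbate1 and Gm35552 are higher in the EC-like nuclei of D-BAT.

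In PC-like nuclei Meg3 had log2 ratios of 0.03 for D-BAT over untreated, -0.11 for D-BAT over sham and 0.14 for sham over untreated, so all were small. Neat1 was at 0.96, 0.90 and 0.06 and Malat1 at 0.42, 0.73 and -0.30. Lncbate1 was at 1.52, 3.17 and -1.64, from 18, 12 and 36 UMIs in the untreated, sham and D-BAT libraries, as in EC-like nuclei higher in D-BAT. The adipocyte marker list moved with it, at 697, 552 and 1290 CPM in PC-like nuclei. After the same ambient subtraction, which has the same limit, Lncbate1 was at 1.22 CPM in those of D-BAT.

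Malat1 and Neat1 also followed the split of EC-like nuclei into clusters. In D-BAT the cluster of low depth was at 23879 CPM of Malat1 and 3188 CPM of Neat1, and the other at 9207 and 937 CPM, log2 ratios of 1.38 and 1.77. Mitochondrial transcripts took 2.68% of UMIs in the first and 6.89% in the second. 1700020I14Rik went the other way, at 255 and 409 CPM (-0.68). The untreated library held the same pair of patterns: a cluster of 1412 nuclei (median 347 UMIs) was at 20511 CPM of Malat1, 1826 CPM of Neat1 and 187 CPM of 1700020I14Rik, and the largest cluster (median 790 UMIs) at 9415, 1108 and 380 CPM. In sham, a cluster with 25.5% mitochondrial UMIs was at 7034 CPM of Malat1 and 432 CPM of 1700020I14Rik, while the largest cluster was at 14996 and 251 CPM.

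**Figure D3:**
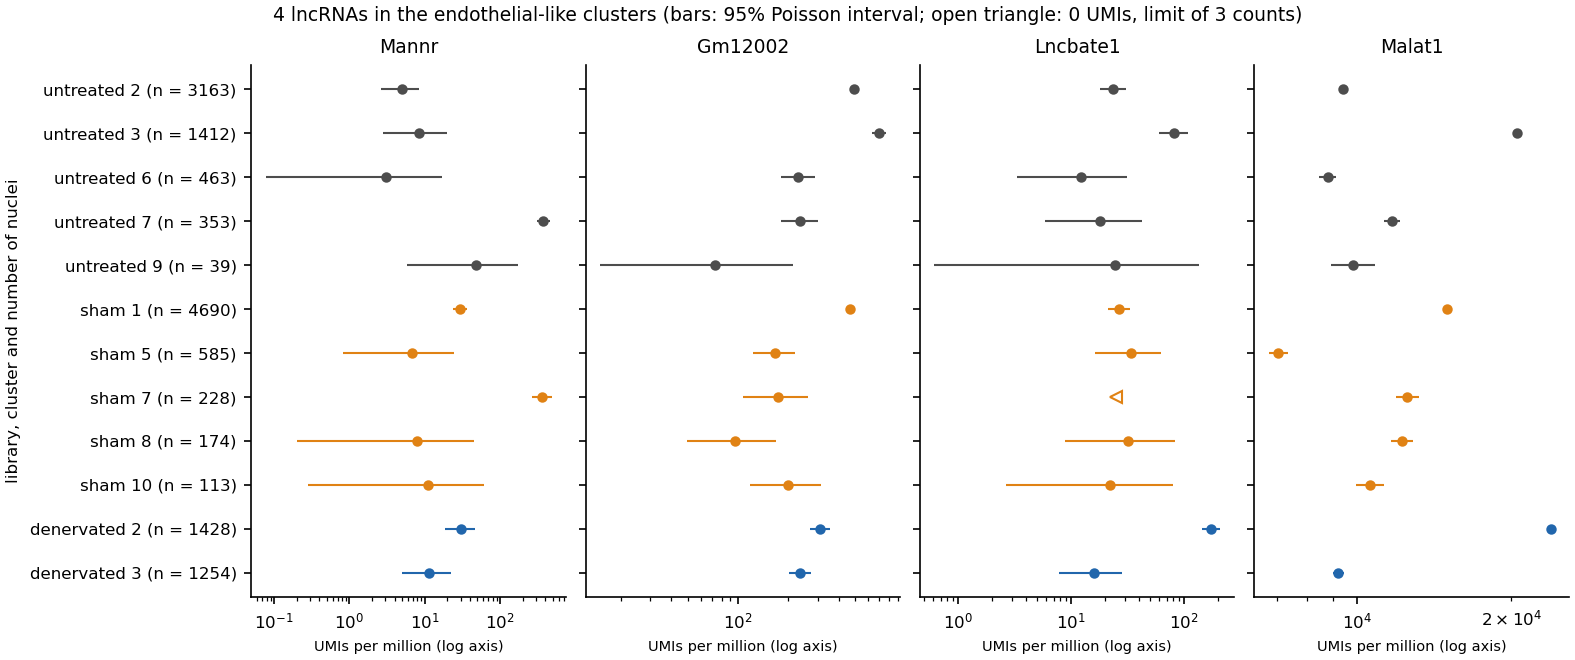
Levels of Mannr, Gm12002, Lncbate1 and Malat1, in CPM on a log axis, in the EC-like clusters of each library, with exact 95% Poisson intervals for counting error; an open triangle marks the limit of 3 counts where no UMI was found. Mannr is at 376 and 361 CPM in the Mannr-rich clusters of the untreated and sham libraries, and Lncbate1 is at 173 CPM in the D-BAT cluster of low depth and at 15.7 CPM in the other.

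Mitochondrial RNA is cytoplasmic, so nuclei were also binned by their mitochondrial share, and levels were taken per 1000000 non-mitochondrial UMIs to keep the share itself out of the value. In untreated EC-like nuclei Malat1 was at 21182 CPM (20163 to 22240) in nuclei under 1%, 18288 CPM at 1 to 5%, 10449 CPM at 5 to 20% and 11280 CPM at 20 to 50%. The same bins of D-BAT were at 23824, 19361, 10609 and 15283 CPM, while those of sham were flatter, at 16607, 17659, 16509 and 12051 CPM. 1700020I14Rik, followed in the same bins after its cluster values were seen, was lowest under 1% and highest at 20 to 50%, where the intervals of neighbouring bins partly overlapped. It was at 157 CPM (81.1 to 274), 254, 421 and 438 CPM (341 to 554) in untreated, at 130, 227, 311 and 457 CPM in sham, and at 217, 323, 447 and 504 CPM in D-BAT EC-like nuclei. On non-mitochondrial UMIs its order was thus the same in all 3 libraries, although the lowest bin rested on 44 nuclei in sham and the highest on 68 in D-BAT. The order depended on the unit. Per 1000000 of all UMIs it was at 380 CPM at 5 to 20% and 318 CPM at 20 to 50% in untreated EC-like nuclei. Those bins were at 408 and 373 CPM in D-BAT, and the intervals overlapped in both libraries. In sham they were at 280 and 309 CPM.

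Neat1 in EC-like nuclei was at 1282, 1951, 1161 and 920 CPM in the untreated bins, lower above 5% than at 1 to 5%, and at 2267, 2774, 943 and 1050 CPM in D-BAT. Sham was flatter, at 1758, 1796, 1704 and 1221 CPM. BA-like nuclei had another order for Malat1. It was at 30208, 25693, 36509 and 53410 CPM in the untreated bins, so it was higher above 5% than at 1 to 5%, and at 24198, 23154, 34843 and 26593 CPM in D-BAT. On non-mitochondrial UMIs again, Neat1 of BA-like nuclei was at 5038, 5611, 5712 and 2155 CPM in the untreated bins. It was at 5274, 5655, 5235 and 2574 CPM in D-BAT, so it was lowest at 20 to 50% in both, in 38 and 17 nuclei. In sham it was at 5283, 5220 and 4949 CPM from 1 to 5% upwards, with no such difference. Their 1700020I14Rik was at 193, 381, 317 and 349 CPM in the untreated bins. In D-BAT it was at 408, 400 and 394 CPM up to 20%, with 0 UMIs in the 17 nuclei at 20 to 50%. In sham it was at 955, 957 and 684 CPM from 1 to 5% upwards. The order seen in EC-like nuclei was thus not found in BA-like nuclei.

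**Figure D4:**
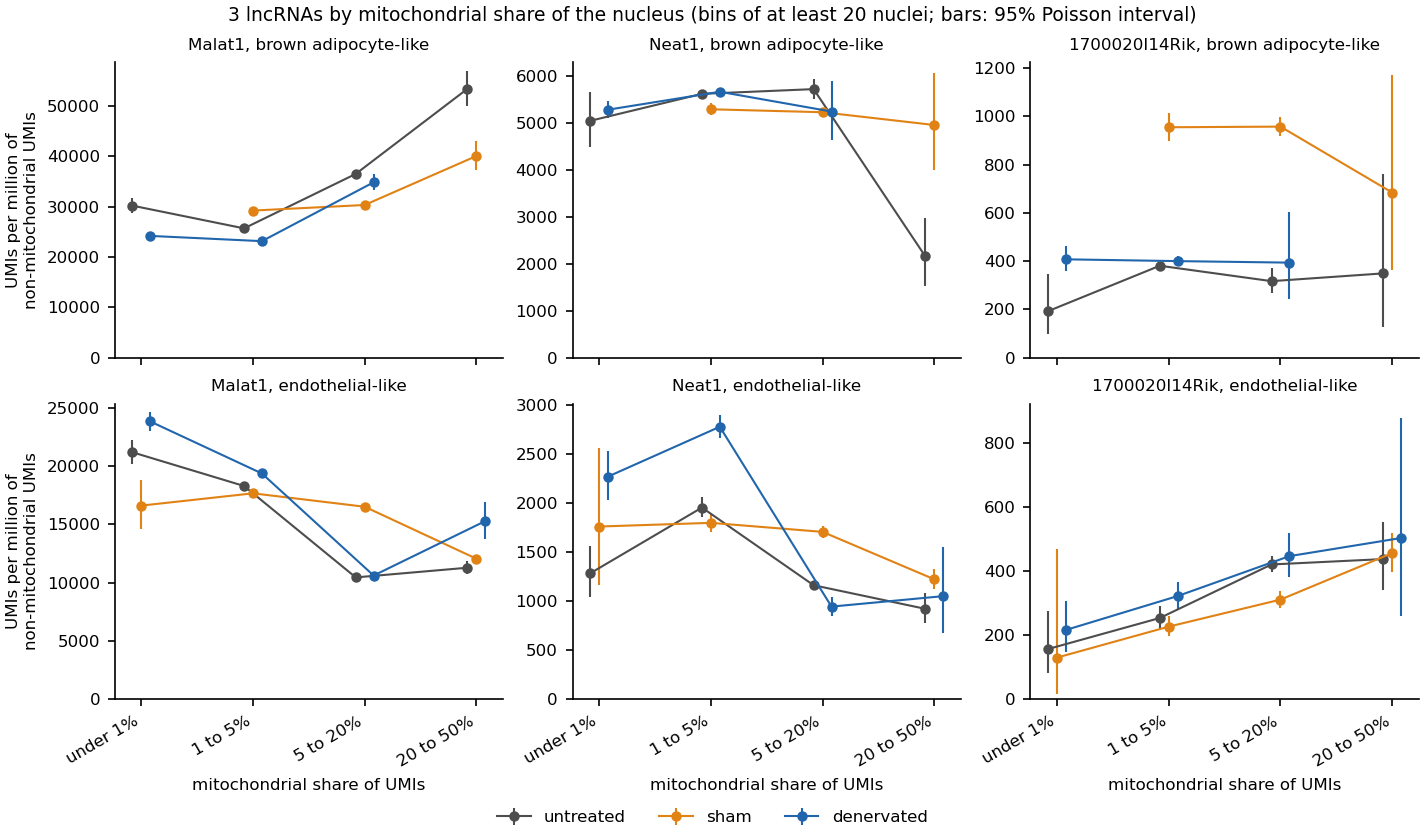
Levels of Malat1, Neat1 and 1700020I14Rik per 1000000 non-mitochondrial UMIs by the mitochondrial share of the nucleus in BA-like and EC-like nuclei of each library, with exact 95% Poisson intervals for counting error, in bins of at least 20 nuclei. In EC-like nuclei Malat1 is lower above 5% than below it in untreated BAT and D-BAT, 1700020I14Rik is lowest under 1% and highest at 20 to 50% in each library, and in BA-like nuclei Malat1 is not lower in the untreated bins above 5%.

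Barcodes with fewer than 200 genes, left out above, held 20901, 6234 and 21968 CPM of Malat1 in the untreated, sham and D-BAT libraries. Gm12002 was at 232, 113 and 424 CPM in them and Lncbate1 at 42.3, 27.7 and 51.6 CPM. They were thus nearer to EC-like than to BA-like nuclei in Lncbate1, with a Gm12002 level above that of the EC-like nuclei in D-BAT. Meg3 was at 44.3, 32.7 and 196 CPM there.

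Protein partners were taken as lists. Of 8 paraspeckle proteins, which bind Neat1, 0 of 6 that could be compared were apart between D-BAT and untreated BA-like nuclei, against 1.76% of all genes. For sham over untreated BA-like nuclei 2 of 6 were apart, both lower in sham and 1 of them Pspc1 (-1.26), against 15.0% of all genes. For D-BAT over sham 1 of 5 was apart, higher in D-BAT, against 16.2%. None of 5 were apart in EC-like nuclei in any comparison. The shares of all genes there were 8.61% for D-BAT over untreated, 16.6% for D-BAT over sham and 4.68% for sham over untreated. Of 9 speckle and splicing proteins, Srsf7, a splicing factor, was the single one apart between libraries, at 1.27 for sham over untreated and -1.42 for D-BAT over sham in BA-like nuclei and -1.18 for D-BAT over sham in EC-like nuclei. This is 1 of 9 each time, against 15.0%, 16.2% and 16.6% of all genes. The list medians in BA-like nuclei for D-BAT over untreated were 0.04 for paraspeckle and -0.00 for speckle proteins.

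Of the 4 genes tied to these lncRNAs by name or binding, 0 of 4 were apart between D-BAT and untreated BA-like nuclei, against 1.76% of all genes. Mecom (1.42) and Ebf2 (1.34) were apart for D-BAT over sham, 2 of 4 against 16.2% of all genes, and Mecom (-1.06) for sham over untreated, 1 of 4 against 15.0%. Ebf2, a transcription factor of the BA programme, was at 942, 474 and 1199 CPM in BA-like nuclei, and it was also at 1630, 1515 and 1540 CPM in PC-like nuclei. In EC-like nuclei it was at 71.0, 43.9 and 308 CPM, so it was higher in D-BAT along with Lncbate1 and the adipocyte markers. Hnrnpu, the partner of Lncbate1, was at 455, 553 and 427 CPM in BA-like nuclei, and Zbtb7b, a brown fat transcription factor, at 72.1, 48.1 and 72.1 CPM. Of 30 other lncRNAs on a list, 3 or 4 reached 50 CPM in a comparison. Snhg11 was the one that followed BA-like nuclei, at 217, 110 and 224 CPM, with a log2 ratio over EC-like nuclei of 3.20, 3.57 and 2.02. In EC-like nuclei it was also higher in D-BAT, by 1.23 over untreated and 2.57 over sham, as were the adipocyte markers. For D-BAT over sham, Tug1 (-1.20) and Snhg11 (1.02) were apart in BA-like nuclei, 2 of 4 against 16.2% of all genes, and Kcnq1ot1 (-1.35), Airn (-1.19) and Snhg11 (2.57) in EC-like nuclei, 3 of 4 against 16.6%.

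The genes most like each lncRNA were sought over 19 sums of a class in a library with at least 50 nuclei, among 9548 genes, by Pearson's r of log2(CPM + 10). The points share libraries, depth and classes, so r is a description. Meg3 was most like Mirg (r = 0.979), Gm12002 most like Sema6a (0.976), and Mannr most like Gata2 (0.947), a transcription factor gene. Lncbate1 was most like Cox10 (0.946), followed by Klb and Nfia, and Gm35552 most like Sh2b2 (0.946). Neat1 was most like Grina (0.940), with Ctcflos next, 1700020I14Rik most like Gm47438 (0.900), Malat1 most like Wdr60 (0.884) and Gm10032 most like Ap1g2 (0.873). These values are the highest over 9548 genes, so neighbours in the genome are not ranked against them. Among neighbours, r ranged from -0.635 for Gm10032 with Dpysl2, 9106 bp away, to 0.796 for Meg3 with Dlk1. It was 0.103 for Lncbate1 with Zfhx3, 0.146 for Gm12002 with Cobl and 0.653 for Gm10032 with Adra1a. For Mannr with Mecom it was 0.754, and for Neat1 with Frmd8, 4224 bp away, -0.463. Zfhx3, around Lncbate1, was at 329, 227 and 363 CPM in BA-like nuclei but also at 509, 413 and 510 CPM in PC-like nuclei, where Lncbate1 was at 31.3, 10.01 and 90.0 CPM.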

How the data were processed

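The authors deposited 1 table per library of UMI counts, as whole numbers per gene and nucleus without normalization. Headers of the untreated and D-BAT tables name the BD WTA Rhapsody Analysis Pipeline 1.9 (nuclei version), GRCm38 and GENCODE vM19, while no header precedes the sham table. The submitters' processing notes list a human build, which was not used.

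Barcodes under 200 genes or over 50% mitochondrial UMIs were dropped. Nuclei with 3 or more UMIs from a second marker list, at least 25% of the UMIs of the higher list, were removed as doublets (7.79%, 13.5% and 7.36%). For each library, counts scaled to 10000 per nucleus were log-transformed, and 2000 variable genes without the 9 lncRNAs, 30 principal components and 20 neighbours entered Louvain clustering (resolution 0.5; igraph 0.11.9, scikit-learn 1.9.0). Clusters were named from at least 3 markers of a list at 2-fold or more, by a rule set after the clusters were seen. Values are UMI counts summed per class, with exact Poisson, Clopper-Pearson or conditional binomial 95% intervals (scipy 1.17.1). In counts drawn from the proportions of the untreated library, with a 4-fold or 3-fold change planted in 200 genes, 100% were called. These changes lay beyond the 2-fold limit and the draws held counting error only. The simulation therefore does not bear on differences between libraries, ambient RNA or clustering. Named genes are the 9 lncRNAs, list genes that were 2-fold apart or tied to a lncRNA, some of the nearest genome neighbours, some of the 3 genes most like each lncRNA, the top lncRNAs, cluster leaders and class markers. The 9 lncRNAs and all lists were chosen with earlier results of these data known. Genes in lists that no table holds were not analysed here. One list gene is not reported here by name.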

Additional observations from a re-analysis of the deposited data

Results flagged for a closer look

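For 3 lncRNAs both ratios of a library to the other two had one sign in BA-like nuclei and the other in EC-like nuclei, with intervals that excluded a ratio of 1. For Neat1 this held for sham over untreated alone (-0.15 and 0.27). The difference between the classes was not tested, because each condition had 1 library. Lncbate1 in D-BAT had log2 ratios of -0.11 over untreated and -0.11 over sham in BA-like nuclei, against 1.56 and 1.81 in EC-like nuclei. The EC-like values rest on the cluster of low depth described above, since the other D-BAT cluster was at 15.7 CPM, and were -0.49 and -0.74 without the EC-like clusters under 400 UMIs, of which untreated BAT had 1 as well. Malat1 in D-BAT had -0.16 over untreated and -0.29 over sham in BA-like nuclei, against 0.54 and 0.21 in EC-like nuclei. Its EC-like ratios were -0.05 and -0.61 without the clusters under 400 UMIs, so the opposite signs were lost. 1700020I14Rik had 1.30 for sham over untreated and -1.19 for D-BAT over sham in BA-like nuclei, against -0.35 and 0.31 in EC-like nuclei. The pairs of ratios share libraries, so they are not separate observations.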

How the results depend on the processing

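The counts in BA-like nuclei for D-BAT over sham and for sham over untreated were 2 under each alternative run. D-BAT over untreated, 0 in BA-like nuclei, became 1 (Gm10032) on non-mitochondrial UMIs, without the UMIs of the 9 lncRNAs, with a mean per nucleus, at Louvain resolution 1 and with classes from marker UMIs. In EC-like nuclei it was 2 and became 4 with at least 500 genes per nucleus, 1 without doublet removal, 1 with a mean per nucleus, and 0 with classes from marker UMIs, after subtraction of an ambient profile, or without clusters under 400 UMIs. Against sham it was 2 and became 5 with 500 genes, 4 with at most 10% mitochondrial UMIs, 1 with a mean per nucleus, with marker classes (Meg3) and after ambient subtraction (Neat1), and 0 without clusters under 400 UMIs. Sham over untreated, 0 in EC-like nuclei, became 1 (Meg3) in 6 settings: 500 genes, 10% mitochondrial UMIs, no doublet removal, non-mitochondrial UMIs, resolution 1 and marker classes. Without the clusters under 400 UMIs the EC-like ratios of D-BAT over untreated and over sham changed sign for Lncbate1, to -0.49 and -0.74, for Malat1, to -0.05 and -0.61, and for Neat1, to -0.21 and -0.62. LncRNAs at least 4-fold above the next class, 2, 0 and 1 in the untreated, sham and D-BAT libraries, became 4, 2 and 3 with adipocytes joined, while the share over all genes rose from 14.3%, 8.63% and 11.5% to 17.1%, 10.3% and 11.9%. They became 1 at resolution 1 and 1 with the lncRNAs in the clustering in untreated, 2 with 500 genes and 1 with resolution 1, marker classes or ambient subtraction in sham, and 2 with 500 genes and 0 without doublet removal in D-BAT. The cause of these moves was not tested. No paired analysis was possible because each condition had 1 library. Levels moved over 1.5-fold for 8 of 44 after ambient subtraction 5 of 44 with marker classes or 500 genes, 4 of 14 without clusters under 400 UMIs, 3 of 44 with a mean per nucleus and 2 of 44 without doublet removal. Mannr, with 28 UMIs in the EC-like nuclei of D-BAT, and all classes under 50 nuclei are limited by depth.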
